A study of Danio rerio with 24 samples.

Results

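Wildtype zebrafish larvae collected in the morning, 2.5 hours after the onset of light (ZT+2.5), were compared with wildtype larvae collected late at night, 3 hours before the onset of light (ZT-3). The comparison took 8 of the 24 samples of the series, 4 at each time, and covered all 31242 genes of the table of counts. Each sample was a pool of 6 whole larvae at 5 days post-fertilization. The larvae carried wildtype klf9 and descended from the grandparents of the klf9-/- mutants in the same series, which were made in the AB strain. The other samples were 4 wildtype pools at ZT0 and 12 klf9-/- pools. They were not fitted in the main test, but its covariate and the scaling of printed levels came from all 24 samples. A test of genotype and time and an alternative fit also used samples outside the 8. The series was made to ask how the effects of losing Klf9, a transcription factor, depend on the time of day, and these 8 pools give the change between 2 times of day in the absence of the mutation.

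Larvae of the ZT+2.5 group were 5.5 hours older than those of the ZT-3 group and had been in the light, whereas those of the ZT-3 group were taken in the dark, so time of day, light and age cannot be told apart. The 4 pools of a group also went through RNA preparation together, so the preparation set and the time cannot be told apart either. In whole larvae, fewer cells of a type and less RNA per cell cannot be told apart. Markers of the tissues listed were found in the whole larvae, and the 15th islet gene was not found in the table. All 26 liver genes, 23 genes of mature neurons, 26 cartilage genes and 14 of 15 listed islet genes had at least 3 counts in each of the 8 libraries, as did 21 of 22 genes of the exocrine pancreas and 8 of 9 embryonic globins.

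The libraries were deep, with 51928841 to 64452247 expected counts each, 25379 to 25615 genes with at least 1 count, and 11.89% to 14.11% of the counts in the 10 most abundant genes. The median total was 60191916 at ZT-3 and 53615431 at ZT+2.5. The TMM scaling factors were 1.014 to 1.048 at ZT-3 and 0.941 to 1.010 at ZT+2.5, without overlap. No pair of replicates differed by counting noise alone. The first principal component of the 24 samples (PC1) took up 21.7% of the variance. Replicate 1 had the highest score and replicate 4 the lowest in 4 of the 6 groups of the series, both groups compared here among them, and the reverse held in wildtype at ZT0 and klf9-/- at ZT-3. Its mean score was 0.35 SD at ZT-3 and -0.33 SD at ZT+2.5 (exact permutation test, two-sided, p = 0.37, n = 4 and 4), and it was a covariate in the test. Replicate 4 of ZT-3 had the lowest PC1 score of its group (-0.92 SD against 0.20 to 1.15 SD) and stood apart in several clock genes. Replicates 3 and 4 of ZT+2.5 had lower scores still (-1.11 and -1.62 SD). Values without replicate 4 of ZT-3 are given where a call rested on it.

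The circadian clock of vertebrates is a feedback loop of transcription. Clock and Bmal proteins (the latter encoded by arntl genes) activate period and cryptochrome genes through E-box elements, and the period and cryptochrome proteins inhibit that activation. Rev-erb receptors (nr1d genes) repress and Ror receptors activate targets at shared elements, among them the arntl genes, and activators of the PAR bZIP family (tef, hlf and dbp genes) compete with the repressor Nfil3 at D-box elements. In zebrafish the peripheral clocks are themselves sensitive to light, and light induces per2, cry1a and DNA repair genes through D-box and E-box elements.

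Of 22562 genes tested, 913 were higher (4.05%) and 471 were lower (2.09%) at ZT+2.5 than at ZT-3, and 6.13% differed in either direction. The thresholds were an adjusted p not above 0.1 and a log2 fold change not below 0.5 in size (edgeR quasi-likelihood test with PC1 as a covariate, Benjamini-Hochberg adjustment). Genes past both thresholds are said below to have risen or fallen. The changes were mostly moderate, with a median log2 fold change of 0.74 among the genes that rose and -0.72 among those that fell, against -0.01 over all genes tested. A log2 change of at least 1 was reached by 257 genes that rose and 102 that fell, and one of at least 2 by 48 and 18. The values of the 4 and 4 pools did not overlap for 802 of the 913 genes that rose and 326 of the 471 that fell. Over all genes tested, 9.55% had values without overlap that were higher at ZT+2.5 and 7.76% had values without overlap that were lower. The 913 and 471 genes were selected by a test on the same values, which itself favours values without overlap. With the replicate number as a block beside PC1, 513 genes rose (2.27%) and 175 fell (0.776%), and with the block in place of PC1, 1099 rose (4.87%) and 433 fell (1.92%). Time and replicate number took up 96.2% of the variance of PC1 in the 8 samples, and the fit with both terms had 2 residual degrees of freedom against 5 with PC1 alone, so a call lost in it does not show a smaller change. Of the 36 printed genes that lost their call there, 26 were still past the fold threshold. Of the genes called, 66.0% had risen, and with library totals in place of TMM scaling this share was 49.3%.

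ZT0 samples, taken at the onset of light, lay between the other groups for most of these genes. Their mean was between the means of ZT-3 and ZT+2.5 for 784 of the genes that rose (85.9%) and 360 of those that fell (76.4%). It was at or beyond the ZT+2.5 mean for 50 and 22, and at or beyond the ZT-3 mean for 79 and 89. These are descriptions without a test. The genes were selected for a gap between ZT-3 and ZT+2.5, which itself favours a ZT0 mean in between, and no share over all genes tested is given.

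The largest rise among the named clock genes was that of per2, a period gene that light induces in zebrafish. It stood at 4.91, 4.43, 4.93 and 4.98 CPM (counts per 1000000, with TMM scaling over the 24 samples) in the 4 ZT-3 pools, and at 190.3, 191, 175 and 173 CPM in the 4 ZT+2.5 pools. The groups were far apart, and the log2 fold change was 5.26 ± 0.06 (SE, adjusted p = 1.4e-10). At ZT0 its mean was 12.7 CPM, and most of the difference lay between the onset of light and ZT+2.5. The other period genes did not move as one. For per3, values of 75.9, 71.8, 71.5 and 58.4 CPM at ZT-3 stood against 238, 263, 227 and 234 CPM at ZT+2.5 (log2 fold change 1.86 ± 0.07, adjusted p = 1.9e-07), and its ZT0 mean of 186 CPM was nearer to the later group. The related per1b rose less (1.05 ± 0.05) and was highest at ZT0, with a mean of 194 CPM against 158 CPM at ZT+2.5.

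The 4th period gene, per1a, went the other way. It read 63.9, 59.8, 62.4 and 48.2 CPM at ZT-3 and 30.9, 20.4, 26.3 and 25.4 CPM at ZT+2.5, with every morning pool below every night pool. Its log2 fold change was -1.13 ± 0.14 (adjusted p = 0.0020), and with the replicate block and PC1 it was -1.21 (adjusted p = 0.14). The ZT0 mean of 66.3 CPM was close to that at ZT-3.

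Of the 9 cryptochrome and photolyase genes tested, 8 rose (background 4.05%), none fell (background 2.09%), and the median log2 fold change of the 9 was 1.81. Cryptochromes of the first group repress the clock, and the photolyases repair lesions that ultraviolet light makes in DNA. The largest change was in cry5, which encodes a photolyase: 2.99, 3.45, 3.27 and 3.97 CPM at ZT-3 became 38.1, 35.1, 41.5 and 40.6 CPM at ZT+2.5, a log2 fold change of 3.44 ± 0.07 (adjusted p = 5.3e-09). The repressor cry1b followed at 3.08 ± 0.07, from 4.06 ± 0.273 CPM (SD, n = 4) to 33.1 ± 3.01 CPM, and cry1a at 2.78 ± 0.09. The light-responsive cry-dash gene rose by 2.18 ± 0.07 on the log2 scale. The clock repressors cry3a and cry3b rose by 1.55 ± 0.04 and 1.81 ± 0.07, and their ZT0 means of 96.2 and 3.76 CPM were below those of ZT-3 (107 and 6.20 CPM). The photolyase cpdp, which repairs cyclobutane pyrimidine dimers, rose by 1.55 ± 0.06 and cry2 by 0.55 ± 0.06. Without replicate 4 of ZT-3 the change of cry2 was 0.46, under the fold threshold. The exception was cry4, at 11.8, 14.8, 10.26 and 14.5 CPM at ZT-3 and 14.4, 13.4, 14.5 and 12.7 CPM at ZT+2.5, where the groups overlapped (log2 fold change 0.10 ± 0.13, adjusted p = 0.64).

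**Figure D1:**
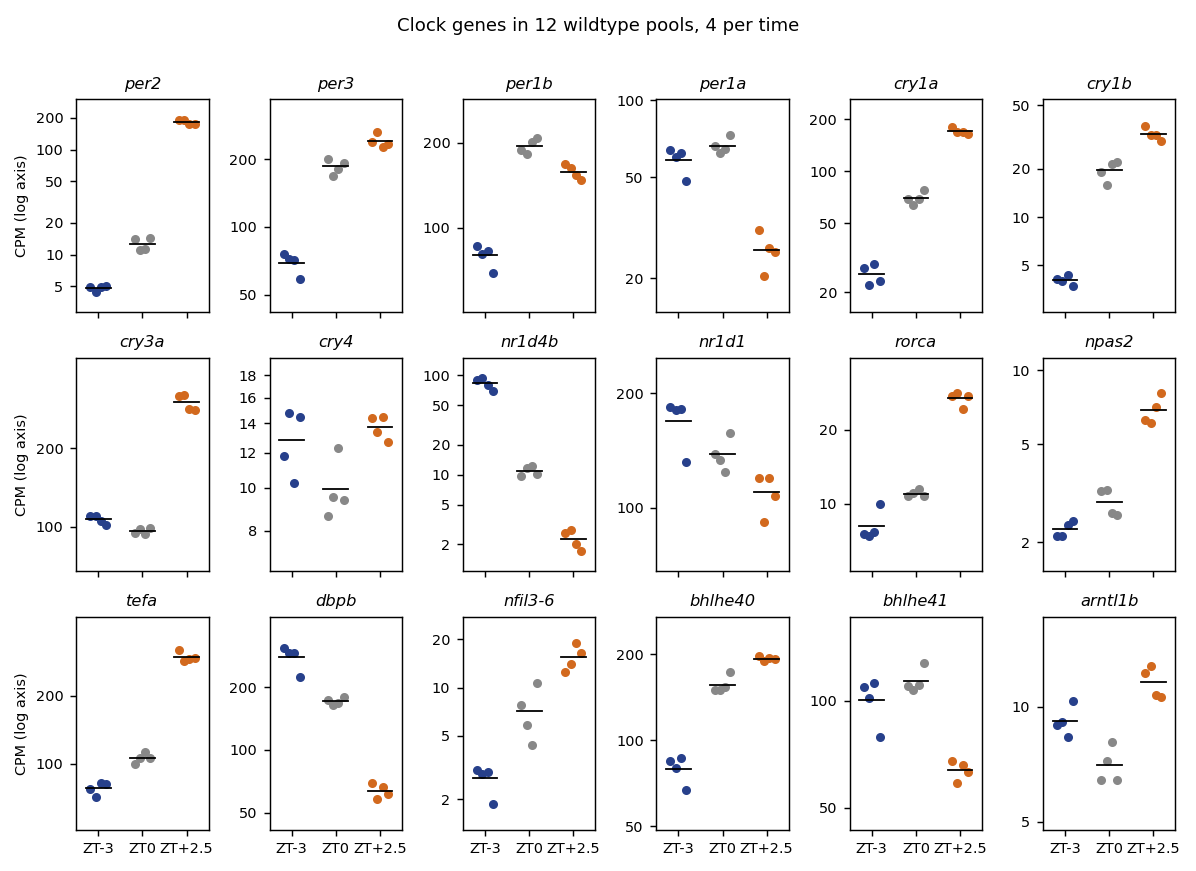
Levels of 18 clock genes in the 12 wildtype pools, with CPM on a log axis and the 3 collection times on the horizontal axis. Points are pools, horizontal lines are means of 4 pools, and per2 goes from a mean of 4.81 CPM at ZT-3 to 182 CPM at ZT+2.5 while nr1d4b goes from 83.3 to 2.28 CPM.

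Among the 10 Rev-erb and Ror receptor genes, 3 rose (background 4.05%) and 3 fell (background 2.09%). The 2 deepest falls of the whole comparison, among genes that met the naming rule, were those of the Rev-erb relatives nr1d4b and nr1d4a. The first stood at 90.03, 93.8, 80.3 and 69.1 CPM at ZT-3 and 2.59, 2.78, 2.02 and 1.72 CPM at ZT+2.5, a log2 fold change of -5.05 ± 0.06 (adjusted p = 1.4e-10). The second went from 31.0, 31.2, 26.9 and 20.3 CPM to 1.62, 1.48, 1.47 and 1.56 CPM (-4.02 ± 0.12), and its ZT0 mean of 2.40 CPM was already near the morning level. In both genes replicate 4 of ZT-3 was the lowest of its group, and still above every ZT+2.5 pool by a wide margin. The Rev-erb gene nr1d1 fell by far less (-0.58 ± 0.14), and its call was lost with the replicate block and PC1 (adjusted p = 0.26) and without replicate 2 of ZT+2.5 (log2 fold change -0.42). The remaining Rev-erb genes, nr1d2a (-0.34 ± 0.20) and nr1d2b (0.26 ± 0.04), did not pass both thresholds, though without replicate 4 of ZT-3 nr1d2a did (-0.58, adjusted p = 0.036).

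The Ror receptors, which activate at the elements that Rev-erb receptors repress, moved upward where they passed. The strongest was rorca, at 7.52, 7.38, 7.63 and 9.92 CPM and then 27.4, 28.1, 24.3 and 27.4 CPM (log2 fold change 1.70 ± 0.10, adjusted p = 7.9e-06). A smaller rise was measured for rorab (1.07 ± 0.05). The change of rorcb (0.52 ± 0.16, adjusted p = 0.056) sat just past the thresholds. With the replicate block and PC1 its adjusted p was 0.35, and it lost the call without replicate 1, 2 or 3 of ZT-3 or replicate 1 or 2 of ZT+2.5 (log2 fold changes of 0.43 to 0.50, adjusted p of 0.10 to 0.17). Just short of the fold threshold was roraa (0.49 ± 0.09), which passed it without replicate 2 or 3 of ZT-3 or replicate 1 or 3 of ZT+2.5 (0.50 to 0.61). No change was measured beyond the spread for rorb (-0.05 ± 0.08, adjusted p = 0.71).

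Of 6 clock activators tested only npas2, a relative of Clock, passed both thresholds (background 4.05% higher and 2.09% lower). It read 2.12, 2.12, 2.36 and 2.45 CPM at ZT-3 and 6.26, 6.08, 7.11 and 8.07 CPM at ZT+2.5 (log2 fold change 1.51 ± 0.08, adjusted p = 2.8e-06). The log2 fold changes of the Bmal genes arntl1a, arntl1b and arntl2 were 0.23 ± 0.08, 0.35 ± 0.09 and -0.20 ± 0.12, and without replicate 4 of ZT-3 that of arntl1b passed the threshold (0.51). The gene clocka was lower in every morning pool (9.46, 11.4, 9.48 and 9.102 CPM) than in every night pool (13.3, 15.05, 12.8 and 14.5 CPM), but its log2 fold change of -0.47 ± 0.09 was short of 0.5. Without replicate 1 or 3 of ZT-3 or replicate 2 of ZT+2.5 it was past it (-0.51, -0.51 and -0.57). Its paralog clockb was at 40.7 ± 0.649 and 38.7 ± 0.911 CPM (SD, n = 4 and 4), a difference that did not pass (adjusted p = 0.27).

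The D-box factors split by gene. The activator tefa rose from 77.4, 71.9, 82.8 and 81.8 CPM to 318, 285, 290.4 and 293 CPM (log2 fold change 1.91 ± 0.06, adjusted p = 1.1e-07), and hlfa by 0.75 ± 0.06. The activator dbpb fell from 309, 294, 292 and 224 CPM to 69.1, 58.4, 66.1 and 61.4 CPM (-2.07 ± 0.10, adjusted p = 2.3e-06), and dbpa by less (-0.89 ± 0.07). The repressor nfil3-6 rose from 2.69 ± 0.548 to 15.5 ± 2.84 CPM (SD, n = 4 and 4, log2 fold change 2.49 ± 0.20). Their relatives tefb, hlfb, nfil3 and nfil3-5 had log2 fold changes of -0.06, -0.15, -0.32 and -0.08, none past the thresholds, and nfil3-3 and nfil3-4 had too few counts to be tested.

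Both Bhlhe repressors, which bind E-boxes, changed, in opposite directions. The levels of bhlhe40 were 84.5, 80.1, 87.0 and 66.8 CPM at ZT-3 and 197, 189, 193 and 192 CPM at ZT+2.5 (log2 fold change 1.32 ± 0.08), and those of bhlhe41 109.6, 102, 112 and 78.9 CPM and 67.6, 58.6, 65.8 and 63.2 CPM (-0.61 ± 0.11, adjusted p = 0.0075, and 0.23 with the replicate block and PC1). The repressors ciarta and ciartb did not pass (0.03 ± 0.05 and -0.18 ± 0.08).

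**Figure D2:**
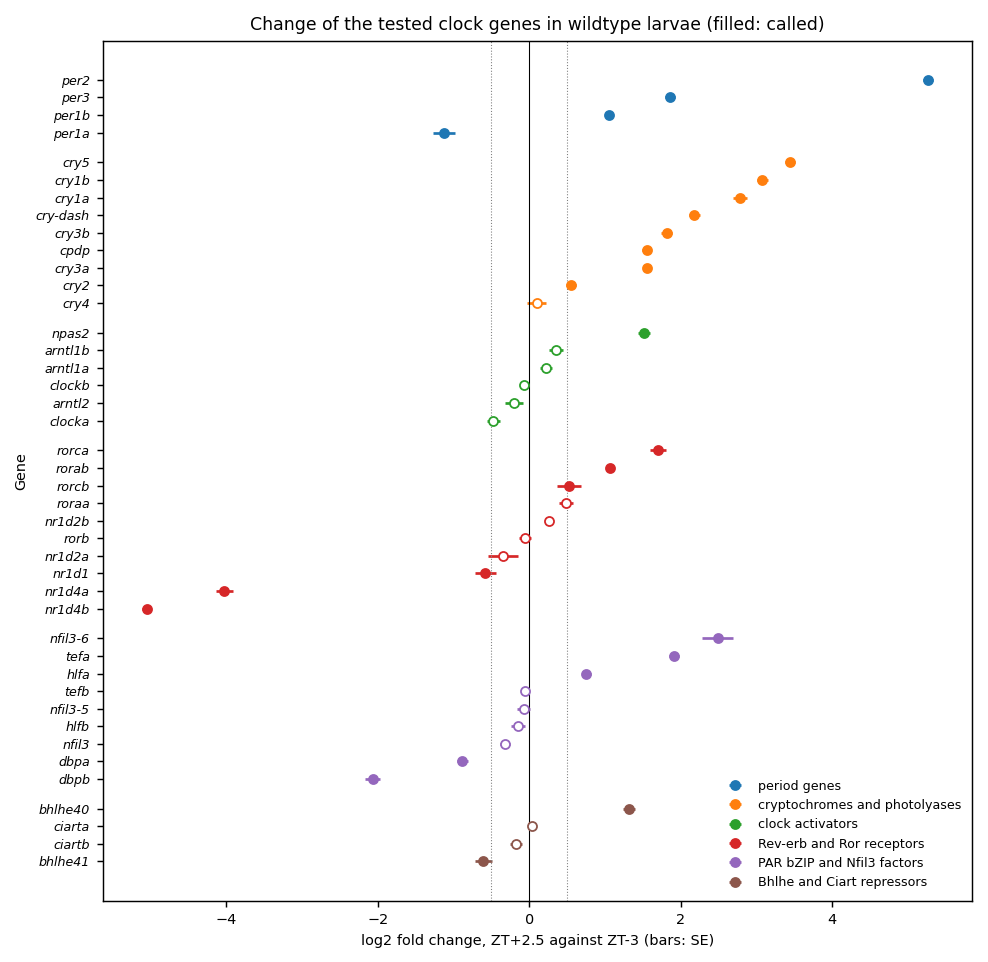
Log2 fold change between ZT-3 and ZT+2.5, with its SE, of every tested gene in the 6 clock lists, where filled points passed both thresholds and dotted lines mark a log2 fold change of 0.5 in either direction. Members of one list lie on both sides of 0 except the cryptochromes and photolyases, which run from 0.10 to 3.44.

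The rise of the photolyases was shared by ddb2 and xpc, which act in repair of ultraviolet damage, and by other genes listed with them. Of 11 genes listed as light-regulated repair genes, 7 rose (background 4.05%) and none fell, with a median log2 fold change of 1.55. They include cry5 and cpdp from the paragraph on cryptochromes. The damage sensor ddb2 read 7.96, 7.79, 8.35 and 7.64 CPM at ZT-3 and 41.4, 38.2, 43.6 and 45.7 CPM at ZT+2.5 (log2 fold change 2.38 ± 0.06, adjusted p = 2.6e-08). The gene lonrf1, which encodes a ring-finger protein and was listed for its response to light, read 30.6, 29.3, 28.9 and 26.3 CPM and then 173, 168, 171 and 169 CPM (2.59 ± 0.05). Its relative lonrf1l, outside that list, rose further, from 8.86, 8.67, 9.63 and 8.07 CPM to 89.6, 92.4, 94.5 and 94.6 CPM (3.40 ± 0.06). Chosen after their values were seen, xpc of the nucleotide excision pathway and the glycosylase neil1 of the base excision pathway rose by 2.08 ± 0.06 and 1.80 ± 0.06. The ZT0 means of ddb2, xpc and neil1 (10.7, 10.0 and 7.11 CPM) were close to those at ZT-3 (7.93, 8.28 and 5.66 CPM).

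Photoreceptors turn light into a fall of cyclic GMP through opsins, transducin and phosphodiesterase, and recover through arrestins, recoverins and guanylate cyclase with its activating proteins. Of 41 genes of this cascade tested, 10 rose (background 4.05%), 3 fell (background 2.09%) and 28 did not pass, and the median log2 fold change was 0.07. The inhibitory phosphodiesterase subunit of cones pde6ha had the largest rise, from 25.7, 28.5, 31.1 and 29.0 CPM at ZT-3 to 317, 305, 328 and 342 CPM at ZT+2.5 (log2 fold change 3.46 ± 0.06, adjusted p = 2.9e-09). The cone arrestin arr3a stood at 234, 236, 223 and 201 CPM and 946, 915, 799 and 732 CPM (2.01 ± 0.04), and the recoverin rcvrn3 at 187 ± 10.18 and 529 ± 66.4 CPM (SD, n = 4 and 4, 1.57 ± 0.06).

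Other genes of the cascade fell. The guanylate cyclase activator guca1a went from 18.1, 14.3, 15.6 and 12.1 CPM to 1.77, 1.15, 1.03 and 0.706 CPM (log2 fold change -3.52 ± 0.14, adjusted p = 5.7e-07). The inhibitory phosphodiesterase subunit of rods, pde6ga, went from 22.7, 16.1, 20.5 and 12.3 CPM to 1.79, 1.67, 1.51 and 1.58 CPM (-3.30 ± 0.18), and its ZT0 mean of 23.3 CPM was above that at ZT-3. The log2 fold change of the cone channel subunit cnga3b was -0.90 ± 0.11. The inhibitory subunits of the cone and the rod enzyme, pde6ha and pde6ga, thus changed in opposite directions. The count of 3 genes that fell was 6 with the replicate block in place of PC1 (background 1.92%). It was 5 without replicate 4 of ZT-3 (background 2.08%), without replicate 1 (2.16%) or without replicate 3 (2.04%) of ZT+2.5.

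Of the visual opsins themselves, 1 of 8 tested fell (background 2.09%) and none rose. The count was 2 with DESeq2 (background 1.93%), without PC1 (1.60%), with library totals (3.21%), with the replicate block in place of PC1 (1.92%), in a fit of all 24 samples (2.45%), over genes with a mean of at least 1 CPM (2.11%) and without replicate 3 of ZT-3 (1.99%). The 1 that passed was opn1lw2, a red cone opsin, at 1543, 1472, 1419 and 1199 CPM and 840.0, 773, 665 and 623 CPM (log2 fold change -0.85 ± 0.05, adjusted p = 4.8e-06), with no overlap between the groups. Its tandem neighbour shares much of its sequence, so reads may be split between them. The opsins summed to 5956 to 8027 CPM at ZT-3 and 5443 to 6720 CPM at ZT+2.5. Of the 50 crystallin genes of the lens tested, none passed both thresholds, while 3 had an unadjusted p under 0.05 (DESeq2 called none). Over all genes tested, 5571 of 22562 had an adjusted p not above 0.1, so the 3 do not set this list apart. Without the fold threshold 2 passed, both lower (background 12%), and the groups overlapped for all 50. The log2 fold changes were positive for 46 of 50, with a median of 0.23. That median was 0.35 without replicate 4 of ZT-3, 0.12 without replicate 2 of ZT-3 and 0.06 without replicate 1 of ZT+2.5. In the fit with the replicate block in place of PC1, 2 crystallin genes rose (background 4.87%), and with library totals 2 fell (background 3.21%). With the PC1 score of the 8 samples 1 fell.

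Melatonin is made at night in the pineal gland from serotonin, with arylalkylamine N-acetyltransferase as the step that sets the rhythm. Of 9 pineal genes tested, 4 fell (background 2.09%) and none rose. The pineal transferase aanat2 fell from 8.56, 7.57, 6.31 and 7.20 CPM at ZT-3 to 1.42, 1.08, 1.33 and 1.28 CPM at ZT+2.5 (log2 fold change -2.50 ± 0.13, adjusted p = 2.8e-06), and at ZT0 was at 2.45 CPM. The log2 fold change of its relative aanat1, best known from the retina, was -1.11 ± 0.11, and that of the tryptophan hydroxylase tph1a was -0.69 ± 0.15 (adjusted p = 0.014, and 0.40 with the replicate block and PC1). The pineal opsin exorh, named as the last of the 4 after its values were seen, read 8.98 ± 0.894 and 5.73 ± 0.733 CPM (SD, n = 4 and 4, -0.55 ± 0.07).

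**Figure D3:**
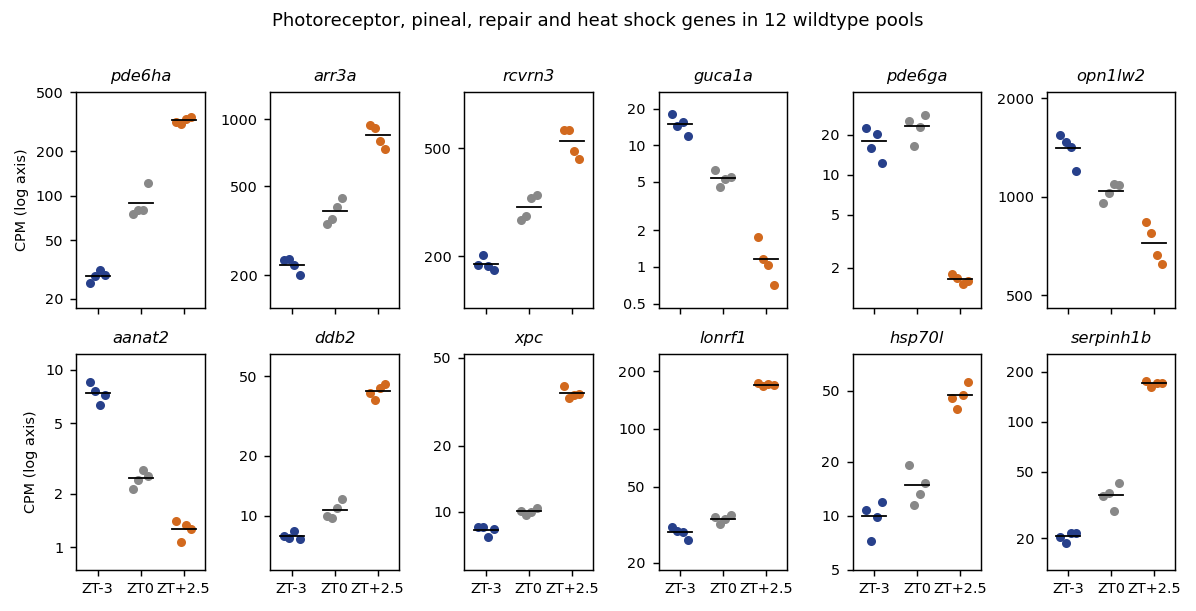
Levels of 12 genes of photoreceptors, the pineal gland, DNA repair and heat shock in the 12 wildtype pools, with CPM on a log axis, points for pools and lines for means of 4. At ZT+2.5 pde6ha is at 323 CPM against 28.6 CPM at ZT-3, and guca1a at 1.16 against 15.0 CPM.

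Heat shock proteins are chaperones that hold or refold other proteins, and their genes are induced by the factor Hsf1. Of 27 heat shock and cold-inducible genes tested, 15 rose (background 4.05%), none fell, and the median log2 fold change was 0.63. None of the 15 was a cold-inducible gene, and 6 of the 27 log2 fold changes were negative, down to -0.78. With the replicate block in place of PC1, 15 rose (background 4.87%) and 2 fell (background 1.92%). The collagen chaperone serpinh1b had the largest change, with 20.2, 18.8, 21.5 and 21.4 CPM at ZT-3 and 177, 161, 172 and 171 CPM at ZT+2.5 (log2 fold change 3.04 ± 0.06, adjusted p = 3.2e-09). The inducible Hsp90 gene hsp90aa1.2 went from 59.99, 50.4, 52.1 and 57.1 CPM to 302, 291, 299 and 279 CPM (2.42 ± 0.07), and the Hsp70 gene hsp70l from 9.93 ± 2.02 to 47.1 ± 6.72 CPM (SD, n = 4 and 4, 2.15 ± 0.13). The Hsp70 and Hsp90 genes have close copies among which reads may be split, so their single values are less certain than the count over the list.

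Chaperones of the endoplasmic reticulum, fold secreted proteins. Of 30 tested, 11 rose (background 4.05%) and none fell (background 2.09%), with a median log2 fold change of 0.32. The leading ones were hsp90b1, from 154, 155, 189.9 and 182 CPM to 269, 330.3, 353 and 385 CPM (log2 fold change 0.87 ± 0.07, adjusted p = 6.7e-05), the disulfide isomerase pdia4 (0.80 ± 0.07) and creld2 (0.78 ± 0.10). Exocrine pancreas cells are rich in these proteins, and the RNA level of pancreas genes differed among pools. The 22 pancreas genes in the table summed to 1031 to 2136 CPM at ZT-3 and to 1013 to 5590 CPM at ZT+2.5. The sums were highest in replicates 3 and 4 of ZT+2.5, which had the lowest PC1 scores of that group (-1.11 and -1.62 SD). The part of these differences among pools in the rise of the folding genes was not tested.

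DNA replication needs licensed origins, polymerases and a supply of nucleotides. Of 44 genes of origin licensing, polymerases and nucleotide supply tested, 24 rose (background 4.05%) and none fell (background 2.09%). All 44 log2 fold changes were positive (0.12 to 0.83), and the median was 0.51. Without the fold threshold 40 of the 44 passed (background 12.7%). With the replicate block and PC1, 11 of the 44 rose (background 2.27%). With library totals in place of TMM scaling 13 rose (background 3.12%), and without replicate 1 of ZT+2.5, 14 rose (background 4.45%). The catalytic subunits of the replicative polymerases alpha and epsilon, pola1 and pole, led the list. The first was at 21.9, 22.0, 16.5 and 22.9 CPM at ZT-3 and 39.9, 35.8, 35.4 and 34.9 CPM at ZT+2.5 (log2 fold change 0.83 ± 0.11, adjusted p = 0.0011, and 0.11 with the replicate block and PC1). Replicate 3 of ZT-3 was the lowest pool for both. For pole the values were 14.7, 14.9, 10.23 and 15.13 CPM and 25.5, 24.2, 19.697 and 23.3 CPM (0.79 ± 0.14), and thymidylate synthase tyms rose by 0.73 ± 0.08. Summed over the list, the level was 886 to 1119 CPM at ZT-3 and 1344 to 1594 CPM at ZT+2.5.

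Of 40 mitosis genes tested none rose and 1 fell (background 2.09%), and the median log2 fold change was -0.13. Without replicate 4 of ZT-3 none of the 40 passed and the median was 0.05. The gene that fell, cdc20, which activates the anaphase-promoting complex, lay close to the fold threshold at -0.52 ± 0.13 on the log2 scale (adjusted p = 0.028, and 0.42 with the replicate block and PC1). It was -0.28 without replicate 4 of ZT-3 and -0.49 without replicate 4 of ZT+2.5, both short of the threshold. Of 17 cell cycle inhibitors and clock-linked cell cycle genes tested, only cdkn1a, the inhibitor p21, fell (background 2.09%) and none rose. It stood at 36.8, 32.8, 37.6 and 32.9 CPM at ZT-3 and 11.5, 8.72, 12.8 and 13.4 CPM at ZT+2.5 (log2 fold change -1.66 ± 0.13, adjusted p = 7.5e-05).

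**Figure D4:**
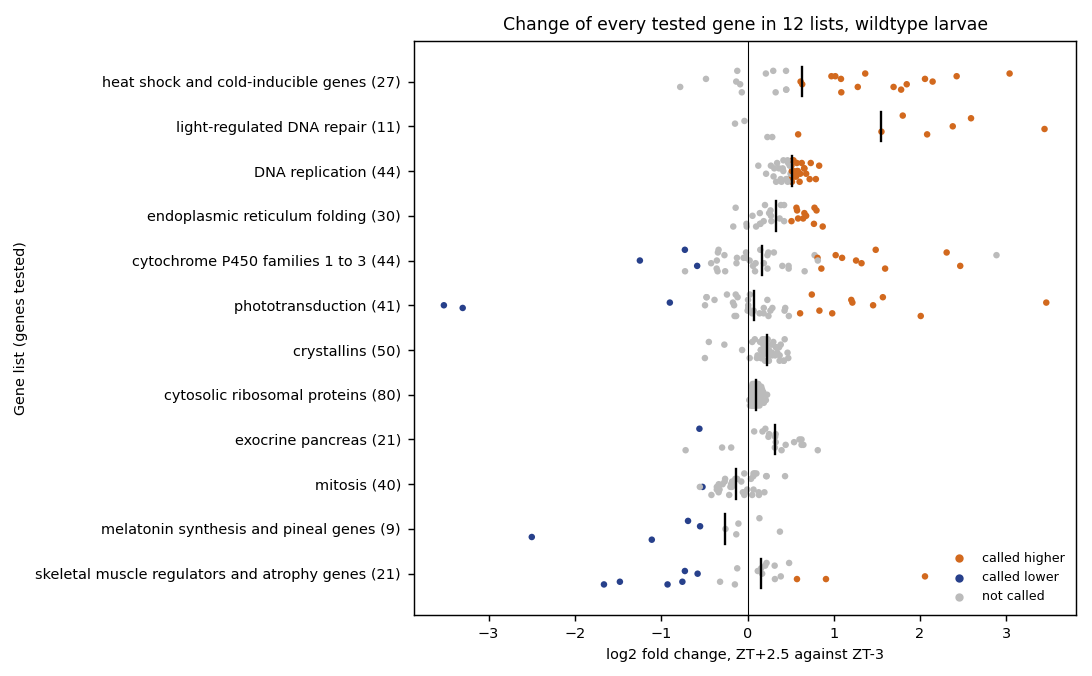
Log2 fold change between ZT-3 and ZT+2.5 of every tested gene in 12 lists, 1 point per gene, with a vertical mark at the median of each list and the number of genes tested beside its name. The 44 replication genes all lie above 0 with a median of 0.51, while the 40 mitosis genes have a median of -0.13, which is 0.05 without replicate 4 of ZT-3.

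Cortisol, made in the interrenal gland, acts through the glucocorticoid receptor. Of 14 genes of the stress axis and steroid synthesis tested, 1 fell (background 2.09%) and none rose. It was cyp11c1, the enzyme of the last step to cortisol, at 9.19, 10.0, 9.46 and 7.04 CPM at ZT-3 and 1.71, 1.502, 1.53 and 1.18 CPM at ZT+2.5 (log2 fold change -2.47 ± 0.11, adjusted p = 6.9e-07). At ZT0 its mean was 3.30 CPM. Of 16 genes of the receptor and its targets, per1a and ddit4, an inhibitor of mTOR signalling, fell (background 2.09%) and none rose. Among the same 16 genes 2 rose (background 4.87%) and 3 fell with the replicate block in place of PC1, and with the block and PC1, 1 rose and 2 fell. Without PC1, 1 of them rose and 2 fell, in a fit of all 24 samples 3 fell (background 2.45%), and without replicate 2 of ZT+2.5, 2 rose (background 3.89%) and 1 fell. The call of ddit4 (-0.50 ± 0.16, adjusted p = 0.077) was lost in 7 of the 8 fits that left out a library, with adjusted p from 0.083 to 0.22 and log2 fold changes from -0.55 to -0.39. Of the well-known targets, klf9 was at 49.8, 35.7, 65.5 and 47.9 CPM and 37.7, 15.3, 38.3 and 31.8 CPM, with a wide spread in both groups (log2 fold change -0.78 ± 0.35, adjusted p = 0.20). It was lower at ZT+2.5 in all 4 pairs of the same replicate number, and it passed both thresholds with the replicate block in place of PC1 (-0.74, adjusted p = 0.027) and in the fit of all 24 samples (-0.85, adjusted p = 0.033). The chaperone fkbp5 was at 85.5, 48.7, 80.1 and 66.9 CPM and 83.5, 27.1, 61.1 and 36.2 CPM (-0.37 ± 0.42, adjusted p = 0.60), and replicate 2 was the lowest of its group at both times for both genes. The receptor tyrosine kinase gene fgfr1a differed by -0.29 ± 0.04, without overlap but short of the fold threshold.

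Skeletal muscle genes moved both ways. Of 21 regulators and atrophy genes tested, 6 fell (background 2.09%) and 3 rose (background 4.05%), and the median log2 fold change was 0.16. Those that fell included cdkn1a and nr1d1, a cell cycle inhibitor and a clock gene described with their own lists, and ubiquitin ligases of muscle protein breakdown. The ligase fbxo32 (atrogin-1) went from 16.2, 8.47, 12.8 and 7.80 CPM to 3.56, 3.66, 3.74 and 4.62 CPM (log2 fold change -1.48 ± 0.29, adjusted p = 0.016), and with the replicate block and PC1 the change was -1.51 (adjusted p = 0.41). The ligase trim63a (MuRF1) went from 62.5, 47.9, 51.2 and 52.3 CPM to 33.4, 23.5, 25.2 and 27.3 CPM (-0.93 ± 0.13), and its ZT0 mean of 23.6 CPM was close to the morning level. Those that rose were the chaperone genes hsp90aa1.1 (2.06 ± 0.19) and unc45b (0.91 ± 0.16, adjusted p = 0.16 with the replicate block and PC1), which serve myosin folding, and the myogenic factor myod1 (0.57 ± 0.13). Without replicate 2 of ZT-3 or replicate 1 of ZT+2.5 myod1 was short of the threshold (0.50 and 0.45).

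Of genes of the liver and intestine, some P450, fasting and intestinal genes rose and few liver plasma protein genes did. Levels of liver and intestinal genes also differed between pools. Of 44 cytochrome P450 genes of families 1 to 3 tested, which oxidise drugs, steroids and fatty acids, 10 rose (background 4.05%) and 3 fell (background 2.09%). With the replicate block and PC1, 6 rose (background 2.27%) and none fell. With the block in place of PC1, 13 rose (background 4.87%) and none fell. The largest rises that passed were those of cyp2p7, from 1.43, 1.71, 2.60 and 1.39 CPM to 8.48, 11.1, 9.50 and 11.6 CPM (log2 fold change 2.47 ± 0.22, adjusted p = 0.00023), cyp2ad6, from 4.27 ± 0.677 to 22.5 ± 3.31 CPM (SD, n = 4 and 4, 2.31 ± 0.12), and cyp2x8 (1.59 ± 0.31, adjusted p = 0.40 with the replicate block and PC1). The 3 that fell, cyp2aa3, cyp2aa7 and cyp2aa9, had overlapping groups, and without the PC1 covariate their adjusted p were 0.69, 0.72 and 0.93. The values of cyp2aa9 were 1.11, 0.617, 1.53 and 8.76 CPM and 0.596, 0.531, 4.19 and 5.25 CPM. Without replicate 4 of ZT-3 the log2 fold changes of cyp2aa3 and cyp2aa9 were -0.47 and -0.77, and neither was called. That of cyp2aa7 (-0.58 ± 0.18) lost its call without replicate 2 or 3 of ZT-3 (-0.54 and -0.46) or replicate 1 or 4 of ZT+2.5 (-0.40 and -0.57).

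Of 31 genes of gluconeogenesis and the fasting response tested, 4 rose (background 4.05%) and none fell. With the replicate block in place of PC1, 10 rose (background 4.87%). The tyrosine aminotransferase tat went from 4.46, 4.08, 4.73 and 5.33 CPM to 14.4, 16.6, 26.7 and 33.3 CPM (log2 fold change 1.97 ± 0.12, adjusted p = 9.2e-06). The pyruvate dehydrogenase kinase pdk2b (1.17 ± 0.29) lost its call without replicate 4 of ZT-3 or replicate 1 of ZT+2.5 (adjusted p = 0.13 and 0.14), and with the replicate block and PC1 (0.19). Of 26 genes of fatty acid synthesis and lipid storage 1 rose (background 4.05%), the carboxylase acaca (0.55 ± 0.06). With the block and PC1 it was short of the fold threshold (0.44). In this list 4 rose (background 4.87%) and 1 fell (background 1.92%) with the block in place of PC1. Without replicate 1 of ZT+2.5, 4 rose (background 4.45%).

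Of 26 genes of cholesterol synthesis none rose or fell in the edgeR test, while 6 had an unadjusted p under 0.05 and DESeq2 called 1 (background 3.85% higher and 1.93% lower). Over all genes tested, 5571 of 22562 had an adjusted p not above 0.1, so the 6 do not set this list apart. Without PC1, 3 rose (background 3.89%), and with the replicate block in its place, 6 rose. Without replicate 3 of ZT-3, 3 rose (background 4.16%), and without replicate 1 of ZT+2.5, 4 rose. Of 26 liver plasma protein genes 17 had a negative log2 fold change, and the median of the 26 was -0.08. Of these genes 2 rose (background 4.05%), the retinol carrier rbp4 (0.55 ± 0.05) and ahsg2 (0.96 ± 0.28). The second lost its call with the replicate block and PC1 (adjusted p = 0.46) and without replicate 2 or 4 of ZT-3 or replicate 2 of ZT+2.5 (adjusted p = 0.10, 0.19 and 0.20). Of 19 genes of intestinal absorptive cells 3 rose: the apolipoprotein apoa4a, from 0.598, 0.744, 1.62 and 3.25 CPM to 2.22, 4.74, 15.4 and 17.5 CPM (1.82 ± 0.19), the bile acid carrier fabp6 (0.70 ± 0.08) and the chitinase chia.2 (1.59 ± 0.36), whose adjusted p was 0.11 without replicate 2 of ZT+2.5 and 0.41 with the replicate block and PC1. The groups overlapped for apoa4a. The background for the 3 rises was 4.05%. With the replicate block in place of PC1, 5 intestinal genes rose (background 4.87%) and 1 fell (background 1.92%). Without replicate 3 of ZT-3, 5 rose (background 4.16%). The summed level of the liver list was 5224 to 10188 CPM at ZT-3 and 4561 to 13111 CPM at ZT+2.5, and that of the intestinal list 1494 to 2934 CPM and 1737 to 4891 CPM. Both sums were again highest in replicates 3 and 4 of ZT+2.5, the pools of that group with the lowest PC1 scores. The part of these differences among pools in the changes of single liver and intestinal genes was not tested.

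Other metabolic lists held few changes, against 4.05% higher and 2.09% lower over all genes tested. The heme list had 2 rises among 19 genes tested (2 and 1 fall with the replicate block and PC1, 3 rises with the block in place of PC1): ferrochelatase fech, the last enzyme of heme synthesis, from 1.76, 1.66, 2.18 and 1.86 CPM to 7.15, 7.98, 9.11 and 9.58 CPM (log2 fold change 2.09 ± 0.10, adjusted p = 1.5e-06), and the biliverdin reductase blvra (1.36 ± 0.09). Among 31 antioxidant genes, 3 rose: the glutathione transferase mgst1.2 (1.04 ± 0.11), the Nrf2 inhibitor keap1a (0.61 ± 0.08) and the thioredoxin reductase txnrd3 (0.53 ± 0.06, and 0.48 without replicate 4 of ZT-3). The Nrf2 gene nfe2l2b fell (-0.70 ± 0.20, adjusted p = 0.055), with its call lost without replicate 2 of ZT-3 or replicate 1 or 3 of ZT+2.5 (adjusted p = 0.10, 0.18 and 0.10) and with the replicate block and PC1 (0.63). Of 13 genes of NAD metabolism, nmrk2, a nicotinamide riboside kinase of muscle, rose from 31.0, 23.6, 32.4 and 23.7 CPM to 73.2, 56.1, 65.6 and 54.5 CPM (1.23 ± 0.14). Of 87 nuclear genes of the respiratory chain 1 rose, the succinate dehydrogenase subunit sdha (0.55 ± 0.04), and of 15 thyroid axis genes the deiodinase dio1 (0.69 ± 0.11, adjusted p = 0.21 with the replicate block and PC1).

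Lists of neurons, the immune system and connective tissue held 1 or 2 changes each. Over all genes tested 4.05% rose and 2.09% fell, and these small counts do not set the lists apart from other genes. The calls in these lists were lost in the fit with the replicate block and PC1. In that fit the log2 fold changes of egr4, ier2b and foxn1 were still 1.17, 0.89 and 0.98. Those of avp, cart1 and camk2a were 0.48, -0.35 and 0.35, short of the fold threshold. Of 26 immediate early genes, which neurons and other cells switch on after stimulation, egr4 (1.08 ± 0.31) and ier2b (0.57 ± 0.18) rose. Replicate 1 of ZT+2.5 was the highest for both, at 8.38 and 11.8 CPM, and without it their log2 fold changes were 0.45 and 0.26, both short of the threshold. The call of ier2b was also lost without replicate 1 or 2 of ZT-3 (adjusted p = 0.11 and 0.11), and that of egr4 without any 1 of the 4 ZT-3 pools (adjusted p from 0.11 to 0.13). Neither passed without the PC1 covariate. In this list 3 genes rose with DESeq2 (background 3.85%), 3 in the fit of all 24 samples (background 4.40%) and 4 without replicate 2 of ZT+2.5 (background 3.89%), and 1 rose and 1 fell with the replicate block in place of PC1. Of 21 arousal and feeding peptide genes, avp rose (0.70 ± 0.21) and cart1 fell (-1.07 ± 0.31), both at under 1 CPM. Without replicate 4 of ZT-3 their adjusted p were 0.17 and 0.18, and without replicate 1 of ZT+2.5 that of cart1 was 0.10. The kinase camk2a was the 1 of 23 genes of mature neurons to rise (0.55 ± 0.07, and 0.50 without replicate 4 of ZT-3), and the thymus factor foxn1 the 1 of 10 thymus and T cell genes (0.85 ± 0.13).

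Of 26 cartilage genes matn1 (0.54 ± 0.07) and mia (0.69 ± 0.15) rose, and of 20 tendon and fibroblast genes tnxba (0.50 ± 0.12). Without replicate 4 of ZT-3 matn1 and tnxba were at 0.45 and 0.42, and tnxba also lost its call without replicate 3 of ZT-3 (0.44) or replicate 2, 3 or 4 of ZT+2.5 (0.47 to 0.50). Of 21 genes of the exocrine pancreas 1 fell (background 2.09%), the transcription factor ptf1a (-0.56 ± 0.17), and without the PC1 covariate it did not pass. Its adjusted p was 0.23 without replicate 4 of ZT-3, 0.14 without replicate 1 and 0.11 without replicate 3 of ZT+2.5. Of 42 genes caught by the name pattern of the proteasome 1 rose (background 4.05%), psmc3ip (0.57 ± 0.16), which is a recombination cofactor and not a proteasome subunit. Its adjusted p was 0.10 without replicate 3 of ZT-3 and 0.18 without replicate 1 of ZT+2.5. In these lists with 1 or 2 changes the adjusted p with the replicate block and PC1 ran from 0.10 (ier2b) to 0.86 (cart1). The log2 fold changes of matn1, mia, tnxba and ptf1a in that fit were 0.45, 0.38, 0.19 and -0.15, short of the fold threshold. That of psmc3ip was 0.59.

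In 9 further lists no gene passed both thresholds in the edgeR test. The 80 cytosolic ribosomal protein genes had log2 fold changes from 0.02 to 0.23, all positive, with a median of 0.10 and 14 unadjusted p-values under 0.05. The groups overlapped for all 80, which summed to 54280 to 57425 CPM at ZT-3 and 54271 to 63337 CPM at ZT+2.5. Changes this small depend on the scaling: the median over all genes tested was -0.01 with TMM and -0.07 with library totals. The 13 genes of the mitochondrial genome had a median of 0.03 (3 under 0.05), the 8 embryonic globins 0.01 (0 under 0.05), the 27 complement genes -0.24 (3 under 0.05), and the 28 genes of neurogenesis -0.05 (6 under 0.05). The 12 genes of myelin had a median of -0.04 (2 under 0.05), the 14 islet genes -0.04 (2 under 0.05), the 20 genes of skin ionocytes -0.03 (4 under 0.05) and the 19 genes of neutrophils and macrophages -0.08 (4 under 0.05). DESeq2 called 1 gene among the 19, which was lower, and none in the other 8 lists. With the replicate block in place of PC1, 2 complement genes and 1 of the 19 rose, and with the block and PC1, 1 complement gene rose and 1 of the 19 fell. No share of unadjusted p under 0.05 over all genes tested is given. At an adjusted p not above 0.1 without a fold threshold, a stricter cut here, 5571 of 22562 genes passed. The counts of unadjusted p-values therefore do not set these lists apart from other genes.

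**Figure D5:**
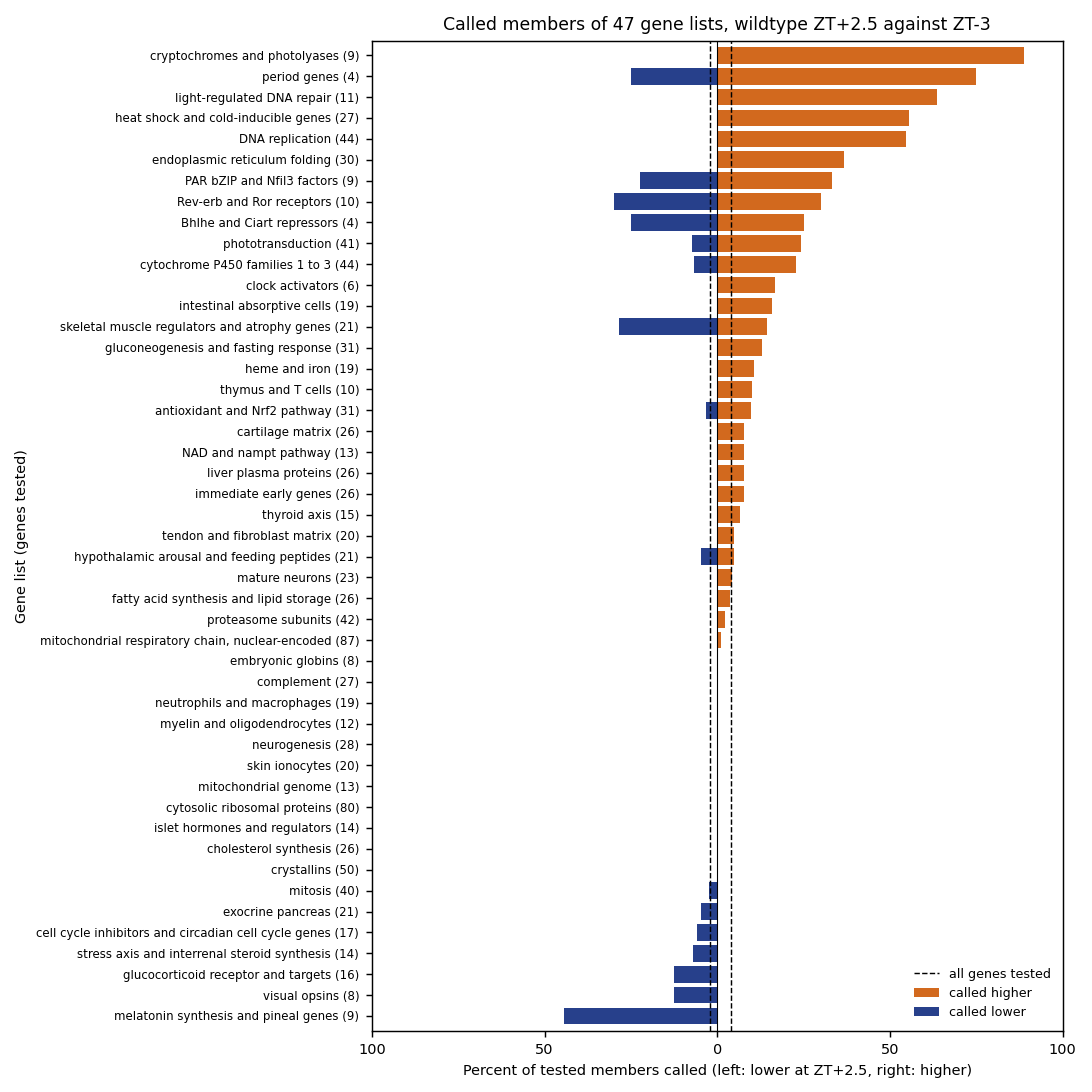
Percent of tested members that rose (right) or fell (left) between ZT-3 and ZT+2.5 in each of 47 gene lists, with the number tested beside each name and dashed lines at the shares over all genes tested, 4.05% and 2.09%. Cryptochromes and photolyases stand at the top with 8 of 9 genes, and the pineal genes at the bottom with 4 of 9 lower.

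Several of the strongest changes were in genes with few or no clues to their role. The largest rise of all genes that met the naming rule was that of si:dkey-18a10.3, from 0.453, 0.253, 0.210 and 0.304 CPM at ZT-3 to 26.7, 25.0, 30.3 and 29.0 CPM at ZT+2.5 (log2 fold change 6.48 ± 0.15, adjusted p = 1.3e-08). It was followed, apart from genes already described, by si:dkey-104n9.1 (4.73 ± 0.11), CR792417.1 (3.91 ± 0.12), si:dkey-97a13.12 (3.29 ± 0.14) and wdr76 (3.23 ± 0.13). All 5 were low at ZT-3, at means of 0.305 to 1.39 CPM. By ZT0 si:dkey-97a13.12 had reached 3.95 CPM against 3.49 CPM at ZT+2.5, whereas wdr76 was still at 1.72 CPM. Among the smallest p-values was also si:ch1073-390k14.1, at 3.46, 3.72, 3.59 and 3.47 CPM and 20.9, 21.1, 20.0 and 20.4 CPM (2.55 ± 0.06).

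Among the largest falls, BX004774.2 went from 20.3, 18.4, 19.4 and 17.7 CPM to 2.68, 2.78, 2.25 and 1.91 CPM (log2 fold change -2.90 ± 0.08, adjusted p = 3.7e-08). The log2 fold change of the SOCS-box gene spsb3b was -2.61 ± 0.21, from a mean of 1.16 CPM. The SOCS-box gene asb15b (-3.30 ± 0.38, adjusted p = 0.14 with the replicate block and PC1) and the secreted phosphoprotein gene scpp9 (-2.86 ± 0.55, adjusted p = 0.55 with that block) lost their calls with the block, at log2 fold changes of -3.43 and -2.84. For scpp9 the night pools were at 4.21, 7.63, 5.26 and 21.4 CPM and the morning pools at 1.32, 1.59, 2.08 and 0.935 CPM. Genes with small p-values were si:ch211-197l9.2 (-1.72 ± 0.07), si:ch211-132f19.7 (-1.54 ± 0.06), si:dkeyp-57d7.4 (-1.38 ± 0.06) and lrata (-1.38 ± 0.07), the acyltransferase that stores vitamin A as esters. Of the 1384 genes called in either direction, 377 carried only a clone or contig name.

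The klf9-/- larvae collected at the same times gave a second set of 8 pools, which shares no sample with the wildtype set. Of the 913 genes that rose in wildtype, 871 had a positive log2 fold change in klf9-/- (95.4%) and 654 passed both thresholds there in that direction (71.6%), and of the 471 that fell, 439 were negative (93.2%) and 276 passed (58.6%). In klf9-/- the calls were 1171 higher (5.24%) and 496 lower (2.22%), so these overlaps are 55.8% and 55.6% of its own lists. In the opposite direction 1 gene of each wildtype list passed. Over all genes tested in both, 75.8% had the same sign. For clock genes the log2 fold changes in klf9-/- were 5.27 for per2, -5.38 for nr1d4b, 2.75 for cry1a and -2.22 for dbpb.

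The difference between genotypes was tested in the 16 pools as the interaction of genotype and time. Of 22947 genes, 1122 had an unadjusted p under 0.05, about the number that a test without any true difference gives. DESeq2 called 19, and in the edgeR test 1 gene passed (0.00436%). It was matn1, the gene of a cartilage matrix protein. In wildtype it stood at 66.6, 66.4, 67.9 and 68.4 CPM at ZT-3 and 86.6, 97.9, 109 and 125 CPM at ZT+2.5, without overlap. In klf9-/- the means were 146 ± 31.6 CPM and 103 ± 13.6 CPM (SD, n = 4 and 4). The klf9-/- pools lay above every wildtype pool at ZT-3 and within the wildtype range at ZT+2.5. The log2 difference in change, klf9-/- minus wildtype, was -1.08 ± 0.11 (adjusted p = 0.0017), and without the PC1 covariate it was -1.15 with an adjusted p of 0.37. Next by p were npas2 (-0.64 ± 0.12), fgfbp2b (-0.71 ± 0.13), klf11b (0.38 ± 0.08) and acana, another cartilage gene (-0.63 ± 0.13), with adjusted p of 0.55 to 0.61, none past the threshold in this test. All 4 were among the 19 that DESeq2 called, and acana passed in edgeR without replicate 1 of wildtype ZT-3. In wildtype, fgfbp2b, klf11b and acana changed by 0.32, -0.26 and 0.47 on the log2 scale, short of the fold threshold, and acana passed it without replicate 1 of either group (0.52 and 0.50).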

How the data were processed

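RNA of pooled larvae was sequenced from 1 end. The authors trimmed the reads with Trim Galore 0.6.5, aligned them with STAR 2.7.5c and assigned them to Ensembl 101 genes with RSEM 1.3.3, per the submitters' processing notes and methods, and deposited expected counts without normalization. They also deposited rlog values, which are log2 values made with DESeq2, and DESeq2 tables of their own fold changes and p-values, which were not used. All 24 samples were mapped by name and 0 columns were left over.

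Expected counts were rounded, filtered with filterByExpr by group and scaled by TMM. The 8 wildtype samples were fitted with edgeR 4.0.16 (R 4.3.3, quasi-likelihood, robust) with time and the PC1 score as terms. PC1 came from the gene-wise Z-transformed rlog values of the 24 samples. P-values were adjusted over all genes tested. SE is the log2 fold change over the root of F. Alternatives included DESeq2 1.42.0. On simulated counts of 22425 genes, 191 of them changed by 1 on the log2 scale, the test recovered 79.6% with 15 false calls. Those counts held no PC1 effect, so they do not show how the test handles one. The members and gene lists were chosen with earlier results of these data known, so no list is independent evidence.

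Genes named are the 10 largest changes and 10 smallest p-values in each direction without overlap and with a mean of at least 1 CPM in the higher group, all members of 6 clock lists, up to 3 called members per direction of each other list, klf9, fkbp5, per1a, cry1a, fgfr1a, cry4 and aanat2, and the 5 smallest p-values of the interaction. 1 gene that met this rule is not reported here. Others are said to be chosen after their values were seen. List members were matched by symbol, Ensembl ID or RefSeq synonym, and 34 of 1267 were not found.

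Same-numbered samples of the 2 groups deviated together from their group means (r = 0.46, 0.33, 0.20 and 0.33 for replicates 1 to 4, across genes). Every correlation was above 0.1, so the numbers were taken to pair the samples, but 4 of the 12 pairs with different numbers were above 0.1 too (0.14 to 0.31), so the pairing is weak. Fits with a replicate block are given where they end the call of a printed gene or move a count by over 1.5 times. The block in place of PC1 also added calls. Per the methods of the study, the pools of a set of 4 were lysed one after another and then processed together. From follow-up experiments the study attributed its PC1 largely, and perhaps fully, to this RNA preparation. It named the uncontrolled time in lysis buffer as the source. That was not tested here. The deviations from the group means were not adjusted for PC1, whose score fell from replicate 1 to replicate 4 in both groups. A shared batch and PC1 therefore cannot be told apart in these correlations. P-values set the change with time against the spread between pools that the other terms of the fit leave. All pools of a time came from the same collection, so p-values do not cover differences between collections. Genes with near-identical copies (Hsp70, Hsp90, red opsins, P450 clusters, crystallins, globins) may share reads.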

Additional observations from a re-analysis of the deposited data

Results flagged for a closer look

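For 21 of 284 sets of 4 wildtype pools (7.39%), 1 per printed gene and time, a pool lay far from the other 3. Chance gives about 1 such set in 20. Replicate 4 of ZT-3 was that pool 8 times: low for nr1d1 (132.1 CPM against 180.2 to 183.6), dbpa (96.7 CPM against 128.5 to 130.1), nfil3-6 (1.873 CPM against 2.881 to 3.045), spsb3b (0.8964 CPM against 1.219 to 1.276) and si:dkeyp-57d7.4 (42.8 CPM against 56.89 to 57.67), and high for rorca (9.924 CPM against 7.377 to 7.628), cyp2aa9 (8.756 CPM against 0.6174 to 1.532) and fbxl3l (3.33 CPM against 1.967 to 2.121).

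Replicate 1 of ZT+2.5 was high for pola1 (39.91 CPM), egr4 (8.384 CPM), ier2b (11.76 CPM) and asb15a (8.98 CPM). Replicate 3 of ZT-3 was low for pola1 (16.52 CPM) and pole (10.23 CPM) and high for chia.2 (173.3 CPM). Replicate 4 of ZT+2.5 was high for fbxo32 (4.618 CPM) and acana (23.45 CPM) and low for avp (0.5343 CPM). The remaining pools were replicate 2 of ZT-3 for per2 (4.432 CPM), replicate 2 of ZT+2.5 for clocka (11.37 CPM) and replicate 3 of ZT+2.5 for arntl1a (13.27 CPM).

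The change of matn1 from ZT-3 to ZT+2.5 differed between genotypes by the test of the interaction (klf9-/- minus wildtype, log2 -1.082).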

How the results depend on the processing

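Of 913 genes higher and 471 lower, leaving out 1 library at a time gave 850 to 1009 and 444 to 490, and 858 and 472 without replicate 4 of ZT-3, of which 711 and 335 were shared with the full set. A PC1 score of the 8 samples alone gave 807 lower, library totals gave 724 lower, and the replicate block with PC1 gave 513 higher and 175 lower. Without a fold threshold 2858 were higher and 2713 lower, and at a log2 fold change of at least 1, 257 and 102. The calls of the printed genes were compared between fits at the main thresholds only, in the fits that tested the gene. Of the 120 printed genes that were called, 77 kept the call in all of these fits. It was lost by 36 with the replicate block and PC1, by 6 with the block in place of PC1 (ier2b, acaca, ptf1a, cyp2aa3, cyp2aa7 and cyp2aa9) and by 23 at least once without 1 library. None of the 120 changed direction in any of these fits. The interaction gave 0 calls without PC1 (615 unadjusted p under 0.05), 19 with DESeq2, 3 with the replicate block and PC1, and 1 to 3 without 1 library (2 without replicate 1 of ZT-3, 3 without replicate 1 of ZT+2.5). Changes of sign occurred only among genes that were not called: cry4 (-0.15), tefb (0.024) and hlfb (0.054) with the replicate block and PC1, rorb with the PC1 score of the 8 samples (0.056), and ciarta without PC1 (-0.014), with library totals (-0.036) and with the block in place of PC1 (-0.015). Without 1 library, arntl2 ran from -0.28 to 0.012, rorb from -0.14 to 0.051 and nfil3-5 from -0.14 to 0.090. The cause was not tested. The 4 pools a side and the fold threshold limit the calls, and genes under the count filter were not tested.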

Other observations

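Genes of vitamin A and carotenoid handling, a list drawn up after the values were seen, moved in both directions. Carotenoid oxygenases cleave carotenoids, some of them to retinal, and retinoid-binding proteins carry retinol and retinal. Of 51 tested, 12 rose (background 4.05%) and 3 fell (background 2.09%). With the replicate block and PC1, 9 rose (background 2.27%) and 1 fell (background 0.776%). The oxygenase bco1l rose from 0.852, 0.918, 1.34 and 1.23 CPM to 6.09, 6.68, 11.5 and 16.01 CPM (log2 fold change 2.81 ± 0.14), and bco2l from 0.745 to 3.37 CPM (1.95 ± 0.21, adjusted p = 0.14 with the replicate block and PC1). Of the binding proteins, rbp4l rose from 102, 111, 114 and 95.4 CPM to 344, 318, 313 and 291 CPM (1.63 ± 0.06), rbp7a by 2.55 ± 0.27 and the photoreceptor matrix gene rbp3 by 1.61 ± 0.08. The groups did not overlap for these 5 genes, while the storage enzyme lrata fell (-1.38 ± 0.07).

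Other families noticed in the same way were smaller. Of 21 Asb genes, which encode ankyrin repeat and SOCS box proteins, 6 fell (background 2.09%) and none rose. With the replicate block and PC1, 1 fell (background 0.776%). Log2 fold changes were -1.63 ± 0.23 for asb14b, -1.21 ± 0.20 for asb15a and -0.96 ± 0.10 for asb2b, with adjusted p of 0.24, 0.21 and 0.063 with the replicate block and PC1. Of 6 genes of Rh glycoproteins, which carry ammonia, 2 rose (background 4.05%): rhcgl1, from 4.89, 5.16, 7.43 and 4.24 CPM to 36.7, 31.1, 43.4 and 43.4 CPM (2.76 ± 0.20), and rh50 (2.66 ± 0.23). The F-box gene fbxl3l (-1.87 ± 0.28, adjusted p = 0.32 with the replicate block and PC1) and the gene cipca, a relative of a Clock-interacting repressor of mammals (-1.05 ± 0.06), fell.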
